A study of Homo sapiens with 22 samples.

Results

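The 8 genes described here are effectors and transcriptional targets of the Hippo pathway, chosen by name from the 60675 genes of the table: YAP1, WWTR1, TEAD1, CCN1, CCN2, ANKRD1, AMOTL2 and AXL. All 8 were found, with CCN1 and CCN2 listed under the older symbols CYR61 and CTGF. They were followed in 22 RNA-seq libraries of HT1080, a human fibrosarcoma cell line, in 6 groups. WT cells carried no engineered mutation and received no inhibitor. HT1080 KDAC6H216A and HT1080 KDAC6H611A carry a histidine to alanine change in the first and in the second catalytic domain, respectively, of the lysine deacetylase KDAC6 (gene HDAC6). HT1080 KDAC8H143A carries such a change in the active site of KDAC8 (gene HDAC8). All 3 changes were made by CRISPR/Cas9 at the endogenous gene of cells grown from single colonies. KDAC6H216A is a pool of independently obtained lines, and how many colonies stand behind each of the other lines is not given in the sources used here. The remaining groups were WT cells treated for 2 days with 1 µM Tubastatin A, an inhibitor of KDAC6, or with 5 µM PCI-34051, an inhibitor of KDAC8. There were 4 libraries of each cell line and 3 of each treatment. The libraries of a group are described as biological replicates without further detail, so p-values measure the spread between these libraries.

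The Hippo pathway is a kinase cascade in which MST kinases (STK3 and STK4) activate LATS kinases, which phosphorylate YAP (YAP1) and TAZ (WWTR1) and so keep them out of the nucleus. Unphosphorylated YAP and TAZ enter the nucleus and act as coactivators of the DNA-binding TEAD factors, which by themselves activate little. CCN1, CCN2, ANKRD1, AMOTL2 and AXL are target genes widely used to read the activity of this module, and in mesenchymal cells they also respond to cell density, to tension of the cytoskeleton and to serum. The mRNA levels reported here do not measure the phosphorylation or the location of YAP and TAZ.

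Total counts ran from 5248953 to 12752463 in WT cells and both KDAC6 lines, from 11010719 to 17170473 in KDAC8H143A and from 24315766 to 29862665 in the inhibitor groups. Every one of the 8 genes had at least 531 counts in every library, so depth was not the limit for any of them. The total RNA was depleted of rRNA before sequencing. Mitochondrial rRNA made up 20.8 to 23.9% of the counts in WT libraries, but at most 0.0259% in KDAC8H143A and in inhibitor-treated libraries. Among the KDAC6 lines it made up 0.195% in KDAC6H216A replicate 1 and 0.173% in KDAC6H611A replicate 4, against 13.1 to 38.0% in the other 6 libraries. Because no WT library had so little, this difference between libraries and the effects of KDAC8H143A or an inhibitor cannot be told apart. Of mesenchymal markers, VIM stood at 2443 to 4243 CPM (counts scaled to a common library size by edgeR) and CD44 at 351 to 1530 CPM, while S100A4 reached 3.24 CPM at most. Epithelial and leucocyte markers (EPCAM, CDH1, KRT19, PTPRC, CD3E and CD14) did not exceed 0.278 CPM in any library. HDAC6 was lower in KDAC6H216A than in WT by 1.25 on the log2 scale (edgeR adjusted p = 5.40e-03), and HDAC8 differed by 0.03 in KDAC8H143A (adjusted p = 0.847). The mutations are single codons, so these levels do not check them.

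The promoters of CCN2, ANKRD1 and AMOTL2 are shown because these targets differed from each other across the groups and the windows hold the motif of TEAD. TEAD factors recognise GGAATG, or CATTCC on the other strand. Each window holds 250 bases before and 50 bases after a RefSeq start of the gene (build GRCh38.p14), printed 5′ to 3′ on the strand of the gene with TEAD motifs in capitals. CCN2 lies on the minus strand (chr6:131951323-131951622), as do ANKRD1 (chr10:90921038-90921337) and the first of 2 windows of AMOTL2 (chr3:134374398-134374697).
CCN2: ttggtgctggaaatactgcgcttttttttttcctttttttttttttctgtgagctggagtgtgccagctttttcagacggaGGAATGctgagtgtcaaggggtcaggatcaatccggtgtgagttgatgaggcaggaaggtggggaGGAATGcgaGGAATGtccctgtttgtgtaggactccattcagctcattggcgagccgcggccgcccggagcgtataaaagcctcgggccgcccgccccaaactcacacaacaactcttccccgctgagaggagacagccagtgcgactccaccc
ANKRD1: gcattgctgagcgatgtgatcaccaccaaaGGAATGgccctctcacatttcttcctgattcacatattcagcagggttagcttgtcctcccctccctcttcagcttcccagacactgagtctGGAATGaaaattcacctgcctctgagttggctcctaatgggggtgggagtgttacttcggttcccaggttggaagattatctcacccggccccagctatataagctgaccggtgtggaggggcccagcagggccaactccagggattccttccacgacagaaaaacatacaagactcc
AMOTL2: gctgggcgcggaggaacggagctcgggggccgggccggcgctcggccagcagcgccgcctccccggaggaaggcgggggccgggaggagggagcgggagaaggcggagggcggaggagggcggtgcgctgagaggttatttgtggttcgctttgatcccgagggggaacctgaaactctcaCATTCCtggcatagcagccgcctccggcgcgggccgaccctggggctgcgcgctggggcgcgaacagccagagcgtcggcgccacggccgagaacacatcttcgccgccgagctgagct

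The CCN2 window held 3 TEAD motifs, at positions -169 to -164, -104 to -99 and -95 to -90 from the start, the last pair being only a few bases apart. The ANKRD1 window held 2, at -220 to -215 and -128 to -123. Between them, at -195 to -189, lay a match to TGANTCA, the pattern searched for AP-1, which allows any middle base. The match reads TGATTCA, and matches with C or G in the middle were not counted apart. The AMOTL2 window held 1, at -69 to -64 and on the opposite strand, and its second window held none. YAP1 itself had 1 at -162 to -157, AXL had 1 in one of its 2 windows at -212 to -207, and neither window of WWTR1 had any. Of all 35116 windows of this length, 14% held at least 1 TEAD motif on either strand, 1.37% at least 2 and 0.128% at least 3. The TGANTCA pattern, with any middle base, was found in 7.71% of the windows. The CArG box, the motif of serum response factor, was searched as well; 1.29% of the windows held it and none of the windows of these genes did. A match is a match of letters only, and windows for CCN1 and TEAD1 were not analysed here.

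In WT cells, AXL, a receptor tyrosine kinase, was the most abundant of the 8 per length of transcript, at 285 ± 13.3 CPM per kilobase (SD, n = 4). The matricellular proteins CCN2 and CCN1 followed, CCN2 at 146 ± 2.28 and CCN1 at a ratio of 0.981 ± 0.0562 to it, and the ranges of these neighbours overlapped. ANKRD1, a nuclear ankyrin repeat protein, stood at 83.9 ± 3.04 and AMOTL2, an angiomotin that binds YAP and is part of the feedback on it, at 76.1 ± 2.36. The effectors were lower than their targets: WWTR1 stood at 42.3 ± 1.26, YAP1 at 26.4 ± 1.31 and TEAD1 at 19.2 ± 0.87 CPM per kilobase. Among the TEAD paralogs TEAD1 was the highest on this scale, ahead of TEAD4 at 12.7 ± 2.09, TEAD3 at 2.53 ± 0.542 and TEAD2 at 1.15 ± 0.308. GAS6, the main ligand of AXL, was itself expressed at 96.3 ± 6.04, whereas the related receptors TYRO3 and MERTK stood at 5.97 ± 0.426 and 0.677 ± 0.219. WWTR1 mRNA exceeded YAP1 mRNA per kilobase 1.6-fold in WT cells, and by 1.34-fold to 1.99-fold in the other groups.

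**Figure D1:**
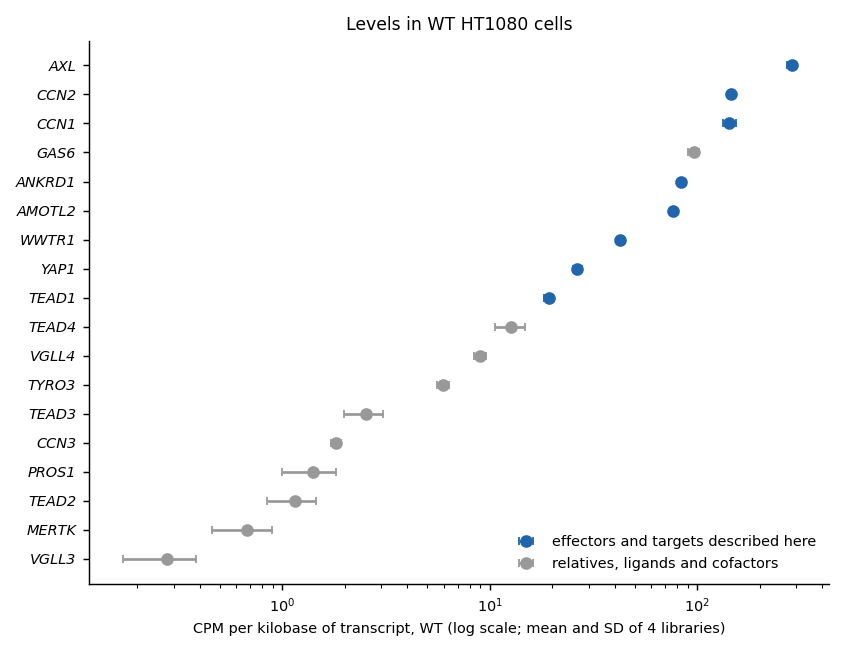
Levels in WT cells as CPM per kilobase of transcript on a log axis, with points for the mean and bars for the SD of 4 libraries. Blue points mark the 8 genes described here and grey points their paralogs, ligands and cofactors with at least 1 CPM; AXL is the highest at 285, and the effectors WWTR1, YAP1 and TEAD1 lie below all 5 targets.

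Levels below are CPM on one scale over all 22 libraries and are given in the order of replicates, which has no meaning of its own. The coactivator YAP1 stood at 134 to 151 CPM in the 4 WT libraries. It stood at 194, 194 and 197 with Tubastatin A and at 193, 198 and 183 with PCI-34051, so every treated library lay above every WT library. In the mutant lines it ranged from 130 to 136 in KDAC6H216A, 124 to 134 in KDAC6H611A and 115 to 135 in KDAC8H143A, overlapping each other. The ranges of the 2 treatments overlapped too. In a bulk library, less RNA of a gene per cell cannot be told apart from fewer cells that express it.

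Its paralog WWTR1 stood at 205, 215, 220 and 212 CPM in WT cells. KDAC8H143A had the lowest values, 161 ± 18.1 (SD, n = 4) with a highest library of 185, all below WT. The highest were those of PCI-34051, at 294, 294 and 285, while Tubastatin A gave 244, 241 and 246. Both treatments thus lay above WT without overlap, and PCI-34051 above Tubastatin A. KDAC6H216A gave 211, 264, 250 and 264, its replicate 1 being the lowest and within the WT range.

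TEAD1, the DNA-binding partner, stood at 185, 177, 189 and 171 CPM in WT cells and at 116, 134, 101 and 103 in KDAC8H143A. It reached 253, 259 and 254 with Tubastatin A and 251, 247 and 246 with PCI-34051. The order of the groups was therefore the same as for YAP1 at both ends, with the treatments highest and KDAC8H143A lowest, and TEAD1 spanned 2.26-fold between them. In KDAC6H216A, replicate 1 had 177 and the other libraries 209, 210 and 211. KDAC6H611A gave 187, 175, 188 and 162, the last being its library with little mitochondrial rRNA.

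The target CCN1 varied widely between libraries of KDAC6H216A and KDAC8H143A, with coefficients of variation of 30 and 23.5%, but by 0.503% with PCI-34051. It stood at 344, 311, 300 and 346 CPM in WT cells and at 819, 533, 625 and 898 in KDAC8H143A. With Tubastatin A it reached 744, 729 and 743, and with PCI-34051 564, 570 and 566. All 10 libraries of these groups lay above all WT libraries, and KDAC8H143A overlapped both treatments. KDAC6H216A gave 415, 269, 222 and 248 and KDAC6H611A 234, 271, 245 and 313; the highest library of each KDAC6 line was the one with little mitochondrial rRNA.

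**Figure D2:**
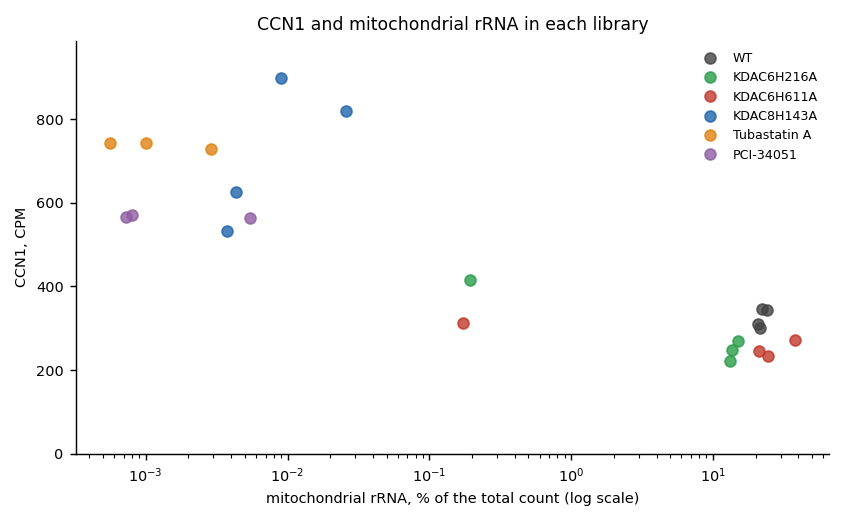
CCN1 level (CPM, linear axis from 0) against the share of mitochondrial rRNA in the total count (percent, log axis), 1 point per library and colours for the groups. Libraries under 1% of mitochondrial rRNA range from 313 to 898 CPM and the others from 222 to 346 CPM; the green point at 0.195% is KDAC6H216A replicate 1 and the red point at 0.173% KDAC6H611A replicate 4.

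CCN1 thus moved with the mitochondrial rRNA share as well as with the groups, as the plot of CCN1 against mitochondrial rRNA shows. Within libraries under 1%, KDAC6H611A replicate 4 stood at 313 and KDAC6H216A replicate 1 at 415, below all 10 libraries of KDAC8H143A and the treatments, whose lowest value was 533. The part of this difference between libraries in the CCN1 result was not tested. ANKRD1 was lowest in the same libraries, at 108 in KDAC6H216A replicate 1 (against 131 to 146) and 103 in KDAC6H611A replicate 4 (against 105 to 125). TEAD1 was lowest in them too, at 177 (against 209 to 211) and 162 (against 175 to 188). AMOTL2 was lowest in KDAC6H216A replicate 1 (298, against 356 to 368) and highest in KDAC6H611A replicate 4 (297, against 256 to 281). ANKRD1 and TEAD1 were also lower than WT in KDAC8H143A, where mitochondrial rRNA was low. In the treated libraries, where it was low too, TEAD1 was above WT, at 246 to 259. ANKRD1 there overlapped WT with Tubastatin A (150 to 157) and was below it with PCI-34051 (98 to 99.9). The part of the mitochondrial rRNA difference was not tested for these genes either.

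CCN2, the paralog of CCN1, stood at 342, 337, 335 and 347 CPM in WT cells. KDAC6H611A was lower in every library, at 221, 204, 233 and 226. KDAC6H216A, at 368, 347, 348 and 355, lay just above the WT libraries. Tubastatin A gave 652, 620 and 640, and PCI-34051 568, 565 and 544, so CCN2 spanned 2.88-fold between KDAC6H611A and Tubastatin A, the widest span of the 8 genes. KDAC8H143A gave 302, 231, 301 and 375 and overlapped WT. As a ratio of levels per kilobase, CCN1 over CCN2 was 0.981 ± 0.0562 in WT cells, 1.19 ± 0.0192 with Tubastatin A and 1.04 ± 0.0251 with PCI-34051, but 2.43 ± 0.27 in KDAC8H143A (SD), where CCN1 was high without CCN2.

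ANKRD1 stood at 147, 153, 156 and 144 CPM in WT cells and at 156, 157 and 150 with Tubastatin A. With PCI-34051 it stood at 98, 99.9 and 98.4, below every WT and every Tubastatin A library. KDAC6H611A gave 114, 105, 125 and 103 and KDAC8H143A 125, 99, 98.7 and 123, so both lines lay below WT and overlapped each other. KDAC6H216A, at 108, 131, 146 and 136, overlapped WT.

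AMOTL2 stood at 357, 384, 366 and 375 CPM in WT cells. KDAC8H143A lay above WT, at 481, 403, 495 and 527, and KDAC6H611A below it, at 281, 256, 276 and 297. Tubastatin A, at 289, 287 and 280, and PCI-34051, at 246, 250 and 255, were below WT without overlap.

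AXL stood at 1253, 1394, 1370 and 1362 CPM in WT cells. It was lower in every library of KDAC8H143A (824, 812, 997 and 778), of Tubastatin A (971, 959 and 956) and of PCI-34051 (718, 782 and 761). KDAC6H216A gave 1101, 1611, 1733 and 1754 and KDAC6H611A 1412, 1075, 1550 and 1451, and both lines overlapped WT. In each of these lines 3 libraries lay above all WT libraries and 1 below them.

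**Figure D3:**
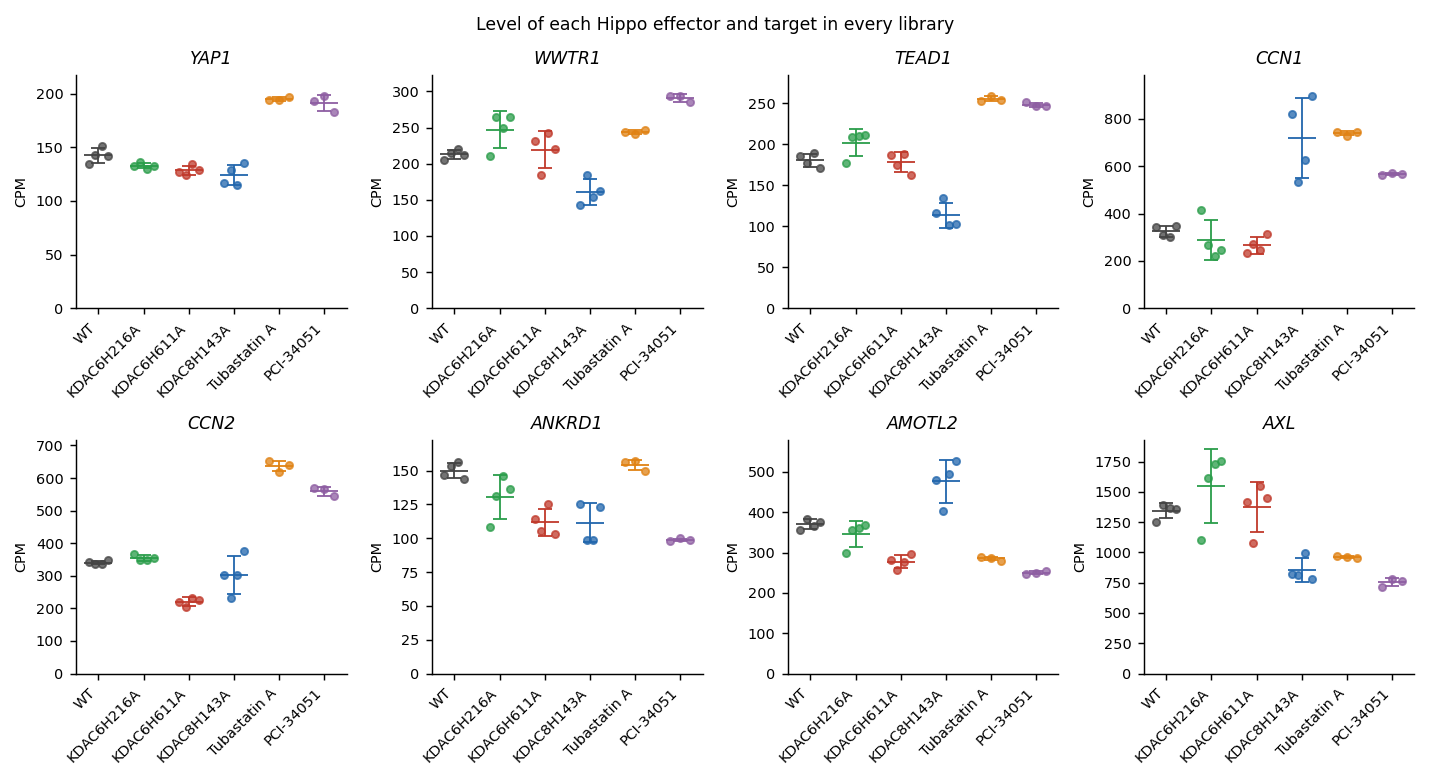
Level of each of the 8 genes in every library (CPM, linear axes from 0), with 1 point per library, a horizontal line for the group mean and bars for the SD; n = 4 for the cell lines and 3 for the treatments. CCN2 separates Tubastatin A and PCI-34051 (above WT) from KDAC6H611A (below WT), and CCN1 is above WT in KDAC8H143A as well as in both treatments.

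Inactivation of the first catalytic domain of KDAC6 was compared with WT to ask whether it altered these genes. None of the 8 passed the threshold of an edgeR adjusted p of 0.01, against 0.834% of all 14500 genes tested (0.214% higher and 0.621% lower). At an unadjusted p under 0.05 only WWTR1 differed (log2 fold change 0.23, 95% interval 0.03 to 0.43, edgeR adjusted p = 0.304), and DESeq2 called 0 as well. The widest interval was that of CCN1, from -0.54 to 0.20, so changes of moderate size in this gene were not detectable with these libraries. This result rested on replicate 1. Without it, 4 of the 8 passed: WWTR1 (0.31), TEAD1 (0.25) and AXL (0.37) were higher and CCN1 was lower (-0.37), with adjusted p from 3.41e-05 to 9.63e-04. In that fit 3813 of all 14638 genes passed, against 121 of 14500 with the library. CCN2, YAP1, ANKRD1 and AMOTL2 were not called with or without that library.

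CCN2 was lower in the line with the second catalytic domain of KDAC6 inactivated. The log2 fold change was -0.62 ± 0.10 (SE; edgeR adjusted p = 7.04e-04), lower in 4 of 4 libraries, and it was called in each of the 8 fits that left out 1 library. ANKRD1 fell by 0.43 on the log2 scale (adjusted p = 8.99e-03), and these 2 were the only members called, 2 of 8 against 12.3% of all 14725 genes (6.08% higher and 6.24% lower). The ANKRD1 call was kept in 2 of the 8 fits without 1 library. AMOTL2, at -0.42 (adjusted p = 0.0102), was just outside the threshold and its libraries did not overlap WT; DESeq2 called it (adjusted p = 3.08e-04). CCN1 was at -0.30 (adjusted p = 0.0855), and YAP1, WWTR1, TEAD1 and AXL lay between -0.15 and 0.04. Without replicate 4, the library with little mitochondrial rRNA, CCN2 was at -0.65 (adjusted p = 1.36e-03), AMOTL2 at -0.47 (7.50e-03) and ANKRD1 at -0.40 (0.0187). Replicate 2, with 38.0% of mitochondrial rRNA, was the lowest library of this line for YAP1, WWTR1, CCN2, AMOTL2 and AXL. Without replicate 2, 2908 of all 14981 genes passed, against 1814 of 14725 with it.

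The 2 KDAC6 lines were also compared directly. CCN2 was lower in KDAC6H611A than in KDAC6H216A (log2 fold change -0.72 ± 0.10, edgeR adjusted p = 9.94e-04), with no overlap between the 204 to 233 CPM of the former and the 347 to 368 CPM of the latter. It was the only member called, 1 of 8 against 9.93% of 14961 genes (4.61% higher and 5.31% lower). The call was kept in each of the 8 fits without 1 library, and the value was -0.74 (adjusted p = 2.51e-03) when both libraries with little mitochondrial rRNA were left out. Scaled to the total count alone, a scale that includes the mitochondrial rRNA, CCN2 was not called. HDAC6 mRNA also differed between these lines, higher in KDAC6H611A by 1.13 on the log2 scale (edgeR adjusted p = 1.87e-03). The part of this HDAC6 difference in the CCN2 result was not tested.

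**Figure D4:**
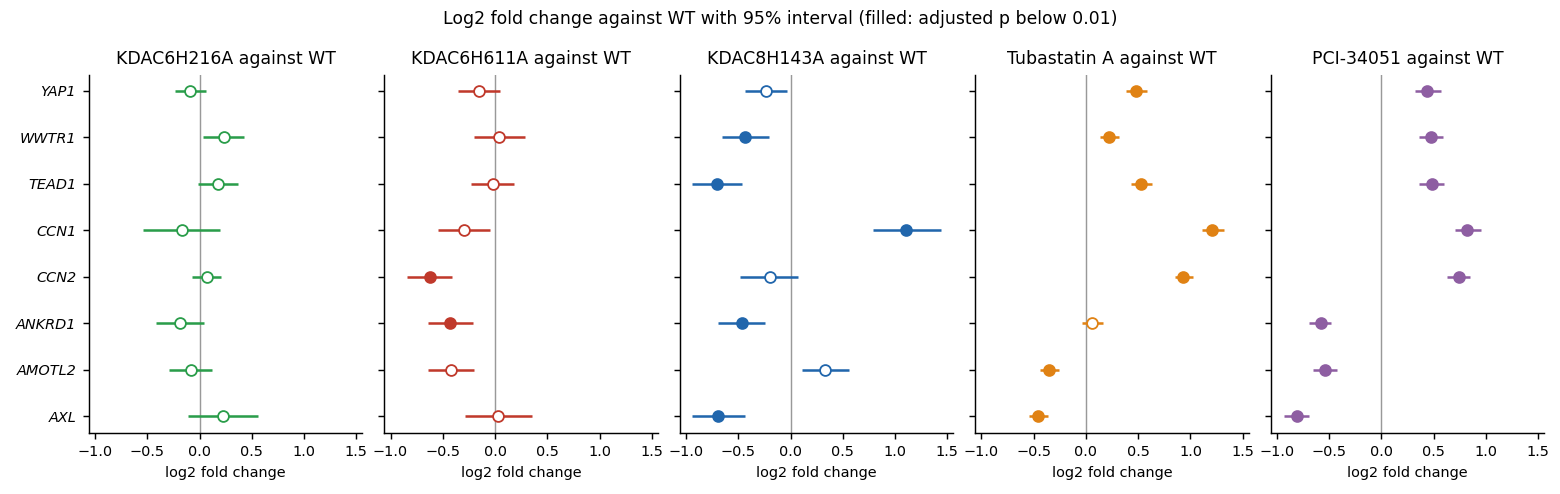
Log2 fold change of the 8 genes in each of the 5 comparisons with WT (edgeR; x axis, log2 scale), with 95% intervals; filled points passed an adjusted p of 0.01. The effectors YAP1, WWTR1 and TEAD1 are above 0 with both treatments, while in KDAC8H143A they are below 0 and CCN1 is at 1.11. All 5 comparisons share the same WT libraries.

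KDAC8H143A was compared with WT to ask what the loss of KDAC8 catalysis changes. CCN1 was higher by 1.11 ± 0.15 on the log2 scale (edgeR adjusted p = 4.77e-05), 2.16-fold, in 4 of 4 libraries. TEAD1 fell by 0.70 (adjusted p = 1.40e-04), AXL by 0.69 (2.32e-04), ANKRD1 by 0.46 (1.89e-03) and WWTR1 by 0.44 (2.30e-03). The members called were thus 5 of 8, where 58.5% of all 16101 genes passed (31.6% higher and 26.9% lower), a share close to the background. AMOTL2 was at 0.33 (adjusted p = 0.0126), YAP1 at -0.23 (0.0428) and CCN2 at -0.20 (0.171, 95% interval -0.48 to 0.07). Each of the 5 calls was kept in all 8 fits without 1 library. Scaled to the total count alone, however, all 4 lower calls were lost, with TEAD1 at -0.41 (adjusted p = 0.0153), AXL at -0.40 (0.0241), ANKRD1 at -0.19 and WWTR1 at -0.15. CCN1 was then at 1.38 and AMOTL2 was called higher at 0.61.

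The values in this line moved with GC content and transcript length, as the plot of KDAC8H143A under 4 scalings shows. After a smooth correction of each library for both, CCN1 stayed higher (0.90, adjusted p = 1.43e-04), TEAD1 stayed lower (-0.47, 1.99e-04) and AXL was lower still (-1.21, 1.77e-06). WWTR1 was then at -0.02 and ANKRD1 at 0.05, neither called. AMOTL2 turned from 0.33 to -0.38 and was called lower (8.35e-04), and CCN2 was called lower at -0.49 (2.11e-03). The transcripts of AMOTL2 and AXL have a GC content of 56.3 and 53.9%, and those of ANKRD1, WWTR1, TEAD1 and YAP1 42.1, 42.2, 43.0 and 43.5%. Whether the correction removes a technical or a biological difference was not tested. Of the members, CCN1, TEAD1 and AXL kept their direction and their call with and without this correction, and CCN1 alone of these was also called with the total count scaling.

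**Figure D5:**
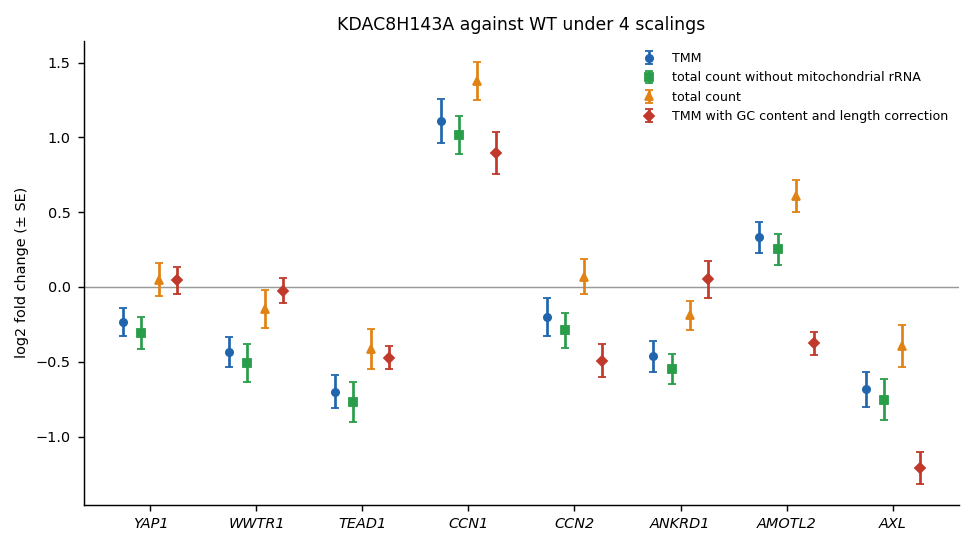
Log2 fold change of the 8 genes in KDAC8H143A against WT (y axis, ± SE) under 4 scalings, marked by colour and shape. CCN1 is above 0 and TEAD1 and AXL are below 0 in all 4, whereas AMOTL2 is at 0.33 with TMM and at -0.38 after the GC content and length correction.

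Tubastatin A was compared with untreated WT cells. Of the 8 genes, 5 rose and 2 fell, where 57.9% of all 15246 genes passed (29.3% higher and 28.6% lower). CCN1 rose most, by 1.21 ± 0.05 on the log2 scale (2.32-fold, edgeR adjusted p = 1.63e-13), followed by CCN2 at 0.93 ± 0.04 (1.91-fold, 5.20e-13). All 3 effectors rose, TEAD1 by 0.53, YAP1 by 0.48 and WWTR1 by 0.22, with adjusted p of 2.57e-04 or lower. AXL fell by 0.46 (4.51e-08) and AMOTL2 by 0.35 (1.22e-06). ANKRD1 was at 0.06 with a 95% interval from -0.04 to 0.16 (adjusted p = 0.242). Of the 5 targets 2 thus rose, 2 fell and 1 was not called. The 7 calls were each kept in all 7 fits without 1 library. WWTR1 was not called after the GC content and length correction (0.09), and AXL and AMOTL2 not when scaled to the total count alone, at -0.10 and 0.00. Without mitochondrial rRNA in the total count they were called again, at -0.46 and -0.35.

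With PCI-34051 all 8 genes passed, where 51.1% of all 15346 genes passed (25.5% higher and 25.6% lower). The 5 that rose were the same as with Tubastatin A: CCN1 by 0.82 ± 0.06 (1.77-fold, edgeR adjusted p = 2.79e-09), CCN2 by 0.74 ± 0.05 (1.67-fold, 1.92e-09), TEAD1 by 0.48, WWTR1 by 0.47 and YAP1 by 0.44. AXL fell by 0.81 ± 0.06 (1.69e-09), ANKRD1 by 0.58 ± 0.05 (2.97e-08) and AMOTL2 by 0.54 ± 0.05 (1.73e-07). All 8 calls were kept in each of the 7 fits without 1 library. Scaled to the total count alone, AMOTL2 was at -0.16 and not called (0.0334). With that scaling the median of all genes was 0.38 for PCI-34051, 0.35 for Tubastatin A and 0.36 for KDAC8H143A. With TMM it was -0.007, -0.003 and 0.076. The treatments share the WT libraries, so the likeness of their values is no independent evidence.

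The treatments were therefore set against each other, although their doses differ (1 µM and 5 µM) and no order of potency follows. ANKRD1 was higher with Tubastatin A by 0.65 ± 0.04 (edgeR adjusted p = 3.71e-07), CCN1 by 0.39 ± 0.04 (8.72e-06) and AXL by 0.36 ± 0.04 (3.11e-05), each in 3 of 3 libraries and in all 6 fits without 1 library. CCN2 and AMOTL2 were both higher by 0.19 (5.33e-03 and 8.14e-03), and WWTR1 was lower by 0.25 (1.53e-03), but these calls were kept in 2, 1 and 3 of the 6 fits. In all, 6 of 8 passed, where 5.65% of 18409 genes did (3.45% higher and 2.2% lower). For YAP1 and TEAD1 the differences were 0.03 (95% interval -0.07 to 0.13) and 0.05 (-0.04 to 0.14). In a fit of all 6 groups together, which shares one estimate of the spread with the mutant lines, none of the 8 was called, with ANKRD1 at 0.66 (adjusted p = 0.104). Few genes passed in that fit at all, 7 of 18480, against 1041 of 18409 in the direct fit.

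The kinases and upstream regulators of the pathway were followed as a list of 18 genes, all of them tested in every comparison. None was called in KDAC6H216A, where 0.834% of all genes were. In KDAC6H611A, 3 were lower and none higher, where 6.24 and 6.08% of all genes were. They were the kinase LATS2 at -1.25 (edgeR adjusted p = 2.82e-06), the scaffold FRMD6 at -1.07 (8.39e-06) and the kinase MAP4K4 at -0.89 (5.29e-05). The list median was -0.18 beside 0.03 over all genes. LATS2 fell from 45.7 to 19.2 CPM and is itself known as a YAP target. In KDAC8H143A, 4 were higher and 7 lower, where 31.6 and 26.9% of all genes were, led by the LATS cofactor MOB1A at -1.60, the scaffold WWC1 at 1.27 and LATS1 at -1.15. The list median of -0.16 there was -0.04 after the GC content and length correction, with 4 higher and 5 lower. Of all 16101 genes, 3443 were then higher and 4388 lower. Scaled to the total count alone the median was 0.13, with 5 higher and 5 lower, where 6470 and 2505 of all genes were. With TMM again, 7 were higher and 6 lower with Tubastatin A, where 29.3 and 28.6% of all genes were. With PCI-34051 they were 4 and 5, where 25.5 and 25.6% were, so the share called was near that of all genes. The median was 0.10 and 0.05 beside 0.00 and -0.01 over all genes, and turned to -0.08 and -0.07 after the GC content and length correction, with 4 higher and 6 lower for Tubastatin A and 3 and 6 for PCI-34051. NF2, the tumour suppressor merlin upstream of LATS, fell from 530 CPM in WT to 287 with Tubastatin A (-0.86, 1.24e-11) and 237 with PCI-34051 (-1.14, 3.00e-11). WWC1 fell with both as well, by 0.63 and 1.12. Scaled to the total count alone, the list split into 13 higher and 4 lower with Tubastatin A and 11 and 2 with PCI-34051. Of all genes, 7909 of 15246 were then higher and 1846 lower with Tubastatin A, and 7888 of 15346 and 1477 with PCI-34051.

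Of 7 TEAD factors and vestigial-like cofactors, 5 were abundant enough to be tested and VGLL1 and VGLL2 were not. None of the 5 was called in KDAC6H216A and only TEAD2 in KDAC6H611A, where it rose from 2.50 to 6.47 CPM (1.34, edgeR adjusted p = 2.67e-03). Of all genes, 0.834% were called in KDAC6H216A and 12.3% in KDAC6H611A. In KDAC8H143A, where TEAD1 was lower, TEAD3 was higher by 1.11 (1.02e-04), TEAD4 by 0.90 (6.75e-04) and VGLL4, a repressor of TEAD, by 0.73 (4.09e-05), with a median of 0.76 beside 0.08. These were 3 of the 5, and none was lower, where 31.6% of all genes were higher and 26.9% lower. After the GC content and length correction TEAD3 was at 0.28 and TEAD4 at 0.05, both no longer called, and VGLL4 at 0.51. Of the 5, 2 were then called higher and 0 lower, where 3443 of 16101 genes were higher and 4388 lower. With either treatment 4 were higher and 1, TEAD4, lower. Of all genes, 29.3% were higher and 28.6% lower with Tubastatin A, and 25.5 and 25.6% with PCI-34051. TEAD4 was not called when scaled to the total count alone. VGLL3 rose by 1.78 with Tubastatin A and 1.13 with PCI-34051, and TEAD2 by 1.09 and 1.11.

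Other known YAP/TAZ targets made a list of 18. With Tubastatin A 11 were higher and 1 lower of 18 tested (median 0.76 beside 0.00 over all genes), where 29.3% of all genes were higher and 28.6% lower. With PCI-34051 10 were higher and 2 lower (median 0.53 beside -0.01), where 25.5 and 25.6% of all genes were. TGFB2 rose from 13.3 to 112 CPM with either treatment (3.09 on the log2 scale with Tubastatin A). Scaled to the total count alone, 15 were higher and 1 lower with either treatment. Of all genes, 7909 of 15246 were then higher and 1846 lower with Tubastatin A, and 7888 of 15346 and 1477 with PCI-34051. In KDAC8H143A 6 were higher and 5 lower of 17 tested, where 31.6 and 26.9% of all genes were. With total count scaling they were 9 and 3, where 6470 of all 16101 genes were higher and 2505 lower. The list median of 0.25 with TMM turned to -0.20 after the GC content and length correction. ARHGEF17 and GADD45A rose by 1.69 each. IGFBP3 had no count in any library of KDAC8H143A against 1.59 CPM in WT, at least 5.71-fold lower by a floor of 3 counts per library. It had none in any library of KDAC6H611A either, at least 2.68-fold lower by that floor. In KDAC6H611A 1 was higher and 2 were lower of 16 tested, where 6.08 and 6.24% of all genes were. THBS1 was at -1.47 (edgeR adjusted p = 3.65e-05) and TGFB2 at 1.04 (4.30e-04). In KDAC6H216A 1 of 17 was lower and none higher, where 0.621 and 0.214% of all genes were.

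Around AXL, the ligand GAS6 was called in KDAC8H143A alone, higher by 0.74 (edgeR adjusted p = 7.70e-04), but at -0.37 and called lower after the GC content and length correction. With Tubastatin A and PCI-34051, where AXL was lower, the receptors MERTK (-1.56 and -2.01) and TYRO3 (-0.58 and -0.66) fell too, and the ligand PROS1 rose (1.26 and 0.99). Of the other CCN genes only CCN3 was abundant enough to be tested against WT; it was called with Tubastatin A (0.66, 1.06e-03).

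For the 4 genes whose group means spanned at least 1 on the log2 scale, the genes with the most similar pattern over the 6 groups were looked up among 13375 genes. Likeness was the root mean square difference between the 6 centred group means, a description over 6 points that share libraries. TEAD1 was most like RLF (0.021) and INTS12 (0.028), CCN1 most like PTMS (0.074) and ZNF703 (0.079), CCN2 most like FHL2 (0.067) and TRAK2 (0.087), and AXL most like PRDX5 (0.076) and LSM7 (0.077). FHL2 was picked on these same means, so its likeness to CCN2 is built in. Its mean was 225 CPM with Tubastatin A, 217 with PCI-34051, 124 in WT and 84.9 in KDAC6H611A. KDAC8H143A was below WT for both genes, with FHL2 at 108 and CCN2 at 302. The genes parted in KDAC6H216A, where FHL2 (120) was below its WT mean and CCN2 (354) above its WT mean of 340. None of the 8 genes was among the 2 nearest to any of these 4.

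The positions of the genes and the reads they could share limit the values in a few places. On GRCh38, CCN1 lies on chromosome 1 from 85580761 to 85584589 and CCN2 on chromosome 6 from 131948176 to 131951372. YAP1 (102110447 to 102233424) and TEAD1 (12674421 to 12944737) lie on chromosome 11, and WWTR1 (149517235 to 149736714) and AMOTL2 (134355347 to 134375479) on chromosome 3. ANKRD1 lies on chromosome 10 from 90912096 to 90921087 and AXL on chromosome 19 from 41219223 to 41261766. LINC01013 overlaps exons of CCN2 on the opposite strand, WWTR1-AS1 those of WWTR1, and unnamed antisense genes those of YAP1 and AXL, and the use of strand in counting is not given in the sources used here. The processed pseudogene RPL39P5 lies within an exon of AMOTL2 on the same strand. Counts were whole in all 22 libraries for YAP1, TEAD1, CCN1 and ANKRD1 (tolerance 1e-09), so no division of reads with other genes was visible there. They were whole in 21 for CCN2, 12 for AMOTL2, 7 for WWTR1 and 6 for AXL. A read given wholly to the wrong gene also leaves a whole count.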

How the data were processed

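Whether counting used strand, and the annotation release, are not given in the sources used here. Per the submitters' processing notes, reads were trimmed with Trimmomatic 0.39, aligned with Bowtie2 2.4.5 and counted with RSEM 1.3.3; the authors deposited the resulting expected counts per gene, not normalized, in 1 table of 60675 genes by 22 libraries. The share of values that were not whole was 10.6 to 13.5% by library (tolerance 1e-09), and expected counts were rounded before testing.

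Each comparison was fitted with edgeR 4.0.16 (R 4.3.3) on its own groups, with TMM factors, filterByExpr and the quasi-likelihood test, Benjamini-Hochberg adjustment over all genes tested and the threshold of 0.01 that the study's methods use. Intervals of 95% use the moderated degrees of freedom. Levels are CPM with TMM factors from 12336 genes with at least 10 counts in every library; per kilobase they use the canonical transcript of GENCODE 44, to which 93.2% of the genes matched. Alternatives were DESeq2 1.42.0, total count scaling, no filter, a filter of 10 counts, all 6 groups in 1 fit, a correction for GC content and length (mgcv 1.9.3), a replicate block and leaving out each library. Total counts without mitochondrial rRNA, and leaving out both KDAC6 libraries under 1% of it, were added after seeing the data. The scripts were tested on simulated data. The 8 genes, the gene lists and the tests were chosen with earlier results of these data known. From each list the up to 3 called genes with the largest change in a comparison with WT are named, except 1 that is not reported here, together with the WT levels of TEAD paralogs and of AXL ligands and related receptors. Like patterns are the 2 nearest genes for members whose group means span at least 1 on the log2 scale, among genes of at least 1 CPM in every group.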

Additional observations from a re-analysis of the deposited data

Results flagged for a closer look

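In KDAC6H216A, replicate 1 stood apart from the other 3 libraries for TEAD1 (177 CPM, against 209 to 211; Dixon's ratio 0.934) and for AMOTL2 (298 CPM, against 356 to 368; 0.835). It is the library with 0.195% of mitochondrial rRNA. Chance alone marks about 1 group in 20 in this way.

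Tubastatin A and PCI-34051, at different doses, differed by the direct edgeR test in 6 of the 8 genes, and in 5.65% of all genes tested. The log2 differences (Tubastatin A minus PCI-34051) were 0.65 for ANKRD1, 0.39 for CCN1, 0.36 for AXL, 0.19 for CCN2, 0.19 for AMOTL2 and -0.25 for WWTR1. CCN2 differed between the lines with the second and the first catalytic domain of KDAC6 inactivated, by -0.72. These lines also differed in HDAC6 mRNA, by 1.13. AMOTL2 was below WT in every library of KDAC6H611A (-0.42) and above WT in every library of KDAC8H143A (0.33). The difference between KDAC6H611A and KDAC8H143A was not tested, and the value in KDAC8H143A turned to -0.38 after the correction for GC content and length.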

How the results depend on the processing

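The number of the 8 genes called, as reported, was, against WT, 8 for PCI-34051, 7 for Tubastatin A, 5 for KDAC8H143A, 2 for KDAC6H611A and 0 for KDAC6H216A, 6 for Tubastatin A against PCI-34051 and 1 for KDAC6H611A against KDAC6H216A. Of all genes tested, 51.1, 57.9, 58.5, 12.3, 0.834, 5.65 and 9.93% were called, in the same order. The number over all genes moved with the processing too and is given beside each alternative. With total counts alone these became 1 in KDAC6H216A, 0 in KDAC6H611A, 2 in KDAC8H143A, 7 for PCI-34051, 6 for Tubastatin A, 4 for Tubastatin A against PCI-34051 and 0 for KDAC6H611A against KDAC6H216A. Of all genes, 440 of 14500, 912 of 14725, 8975 of 16101 and 9365 of 15346 then passed, in that order. For the rest it was 9755 of 15246, 1030 of 18409 and 781 of 14961. In 1 fit of all 6 groups they became 1 in KDAC6H611A, 4 for Tubastatin A, 7 for PCI-34051, 0 for Tubastatin A against PCI-34051 and 2 for KDAC6H611A against KDAC6H216A. Of all 18480 genes, 2095, 4607, 4341, 7 and 3382 passed in that fit, in that order. KDAC6H611A had 1 call without the filter, where 2468 of 31966 genes passed. The replicate block left 1 call in KDAC6H611A and 4 for Tubastatin A against PCI-34051, with or without the GC content and length correction, and that correction left 6 for Tubastatin A. Of all genes, the block left 1559 of 14725 and 766 of 18409 (1343 and 708 with the correction), and the correction 8645 of 15246. Total counts without mitochondrial rRNA left 4 for Tubastatin A against PCI-34051, where 1030 of 18409 genes passed. DESeq2 and the filter of 10 counts gave 3 in KDAC6H611A, where 2173 of 31966 and 1490 of 12792 genes passed. That filter gave 6 in KDAC8H143A, where 7693 of 12731 genes passed. Same-numbered replicates correlated at -0.189 to 0.312 across pairs, and in no comparison did every pair exceed 0.1, so the numbers were not taken to pair the libraries. Leaving out 1 library gave 0 to 4 calls in KDAC6H216A (4 without its replicate 1), 1 to 3 in KDAC6H611A, 5 to 7 in KDAC8H143A, 8 for PCI-34051, 7 for Tubastatin A, 3 to 6 for Tubastatin A against PCI-34051 (3 without any 1 Tubastatin A library) and 1 for KDAC6H611A against KDAC6H216A. Of all genes, 28 to 3813, 1122 to 2908, 8186 to 10520 and 7043 to 7686 passed, in that order. For the rest it was 8159 to 8902, 407 to 1161 and 772 to 3041.

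Directions turned as follows. With total counts alone, in KDAC6H216A CCN1 was at 0.02, AMOTL2 at 0.08 and YAP1 at 0.08; in KDAC8H143A CCN2 was at 0.07 and YAP1 at 0.05; AMOTL2 with Tubastatin A was at 0.00. Between the treatments YAP1 was at 0.00 with total counts, with or without mitochondrial rRNA, and without PCI-34051 replicate 3. With all 6 groups in 1 fit, AMOTL2 was at 0.01 and YAP1 at 0.00 in KDAC6H216A. With the GC content and length correction, in KDAC8H143A AMOTL2 was at -0.38, ANKRD1 at 0.05 (0.03 with the replicate block as well) and YAP1 at 0.05 (0.04), and in KDAC6H611A AXL was at -0.08 (-0.10) and TEAD1 at 0.00. Without 1 library, AXL in KDAC6H611A ranged from -0.05 to 0.14, TEAD1 from -0.07 to 0.01 and WWTR1 from -0.03 to 0.13, and CCN1 in KDAC6H611A against KDAC6H216A from -0.26 to 0.03. The cause was not tested. Of single-gene alternatives to a called value, 410 kept direction and call, 54 lost the call and 3 turned. Of those to a value not called, 420 were alike, 23 turned and 18 were called.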
